A study of Mus musculus with 16 samples.

Results

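Egr1, Egr3, Fos, Fosl1, Jun, Junb, Ier2, Ier3 and Klf6 are 9 immediate early genes of the mouse, and they were taken by symbol from a table of 12321 genes. All 9 were in the table and all passed the filter on low values, so 9 of the 12320 genes tested are described here. The RNA came from LKR10, a mouse lung adenocarcinoma cell line, sequenced in 16 libraries. The cells carried a pLKO lentiviral vector with a short hairpin RNA (shRNA) against GFP, the control, or against Ankrd35, an ankyrin repeat gene, and were kept for 48 h under puromycin (4 µg/ml), then cultured 96 h more. They grew as a monolayer (2D) or in 0.5% methylcellulose, a viscous medium in which cells form clusters without attaching (3D), both in DMEM with serum. The 4 groups, with 4 libraries each, were thus 2D shGFP, 2D shAnkrd35, 3D shGFP and 3D shAnkrd35, and all of them were infected and selected. The labels do not say whether the 4 libraries of a group came from separate cultures, so p-values refer to library-to-library spread alone, part or all of which may be technical.

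Immediate early genes are switched on within minutes of a growth factor or stress signal, without new protein synthesis, and their short-lived messages then fall back. The RAS to ERK cascade acts on them through SRF and its ternary complex cofactors at serum response elements, and CREB or ATF proteins act at cyclic AMP response elements (CRE). Most of the 9 encode transcription factors. EGR1 and EGR3 are zinc finger activators held in check by the NAB corepressors. FOS and FOSL1 pair with JUN or JUNB to form the AP-1 factor. KLF6 is a zinc finger protein of the Krüppel-like family, IER2 is a nuclear protein without a classical DNA-binding domain, and IER3 (IEX-1) is a regulator of cell survival and of ERK signalling. Lung adenocarcinoma lines often depend on RAS signalling, and FOSL1 is a well known output of it.

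The libraries held 13821342 to 28722341 reads assigned to genes. Levels are given as CPM, a gene's count relative to the effective library size, and where genes are compared with each other as FPKM, which also divides by the exonic length in kilobases. Changes are log2 fold changes with the standard error (SE), and p-values are limma's with Benjamini-Hochberg adjustment across the 12320 genes. Rose and fell, or higher and lower called, mean an adjusted p under 0.05. Shares of all genes called are at that threshold in the main fit, on all 16 libraries, unless another setting is named. None is given at an unadjusted p. Reads of the targeted gene Ankrd35 summed to 18 in 2D shGFP, 16 in 2D shAnkrd35, 63 in 3D shGFP and 41 in 3D shAnkrd35. These sums are not scaled for library size. Scaled, the mean was 0.219 ± 0.124 CPM (SD) in 2D shGFP and 0.187 ± 0.137 in 2D shAnkrd35. In 3D it was 0.597 ± 0.055 CPM with shGFP and 0.501 ± 0.093 with shAnkrd35. The reduction that the label names is not resolved at so few reads in 2D. In 3D the means differ by little more than the SD of 3D shAnkrd35, so a reduction is not shown there either. Directions therefore rest on the label in both growth types. The dependence of a library's values on gene GC content differed between groups, with slopes of -0.10 to 0.29 log2 units per 10% GC in 2D shGFP, 0.26 to 0.53 in 2D shAnkrd35, -0.29 to -0.23 in 3D shGFP and -0.26 to -0.12 in 3D shAnkrd35. Values after removal of a smooth trend on GC content and length are therefore given beside each printed call of a gene that they alter. Library 1 of 2D shAnkrd35 stood apart from the other 3 of its group, with 2109 CPM of the ribosomal RNA-like transcript Gm23935 against 239 to 313 CPM. Of 14 epithelial markers 8 were in the table. Over the groups, mean Krt8 was 3004 to 4137 CPM, Krt18 1761 to 2841 and Cdh1 442 to 518. Mean Krt19 was 313 to 721 CPM and Aqp5 117 to 183. Epcam, at 0.406 to 2.58 CPM, Lyz2, at 1.42 to 4.24, and Ager, at 1.60 to 4.31, were low. The lung epithelial genes Nkx2-1, Sftpc, Sftpb, Sftpd, Scgb1a1 and Hopx, also among the 14, were not in the table and have no value here. Of 8 fibroblast markers 5 were in the table. They summed to 31.8 to 34.6 CPM in 2D shGFP, 20.8 to 21.9 in 2D shAnkrd35 and 25.3 to 29.0 in 3D shGFP. In 3D shAnkrd35 the sum was 12.6 to 48.2 CPM, with a median of 15.5. Of 8 macrophage and leukocyte markers only Cd68 and Cd14 were in the table. They summed to 39.6 to 41.1 CPM in 2D shGFP, 75.5 to 83.1 in 2D shAnkrd35, 114.6 to 122.0 in 3D shGFP and 129.5 to 143.5 in 3D shAnkrd35. Most of each sum was Cd14, with means of 38.3, 75.4, 115 and 130 CPM in that order, against 2.14, 4.22, 4.69 and 4.52 CPM of Cd68. The part of these genes in the results was not tested.

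Per length, Junb and Ier2 were the most abundant of the 9 in 2D shGFP, at 71.4 and 65.5 FPKM, and Egr3 and Fos the least, at 0.876 and 0.759 FPKM. Junb stood at percentile 92.5 or above of all genes in each of the 4 groups. Fos, the founding member of its family, stayed between percentiles 9.6 and 16.5. Egr3 moved from percentile 12.0 in 2D shGFP to 44.4 in 3D shGFP and 14.1 in 3D shAnkrd35. The order of the rest in 2D shGFP was Klf6 at 43.3, Fosl1 at 33.9, Egr1 at 28.3, Ier3 at 15.0 and Jun at 13.0 FPKM.

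**Figure D1:**
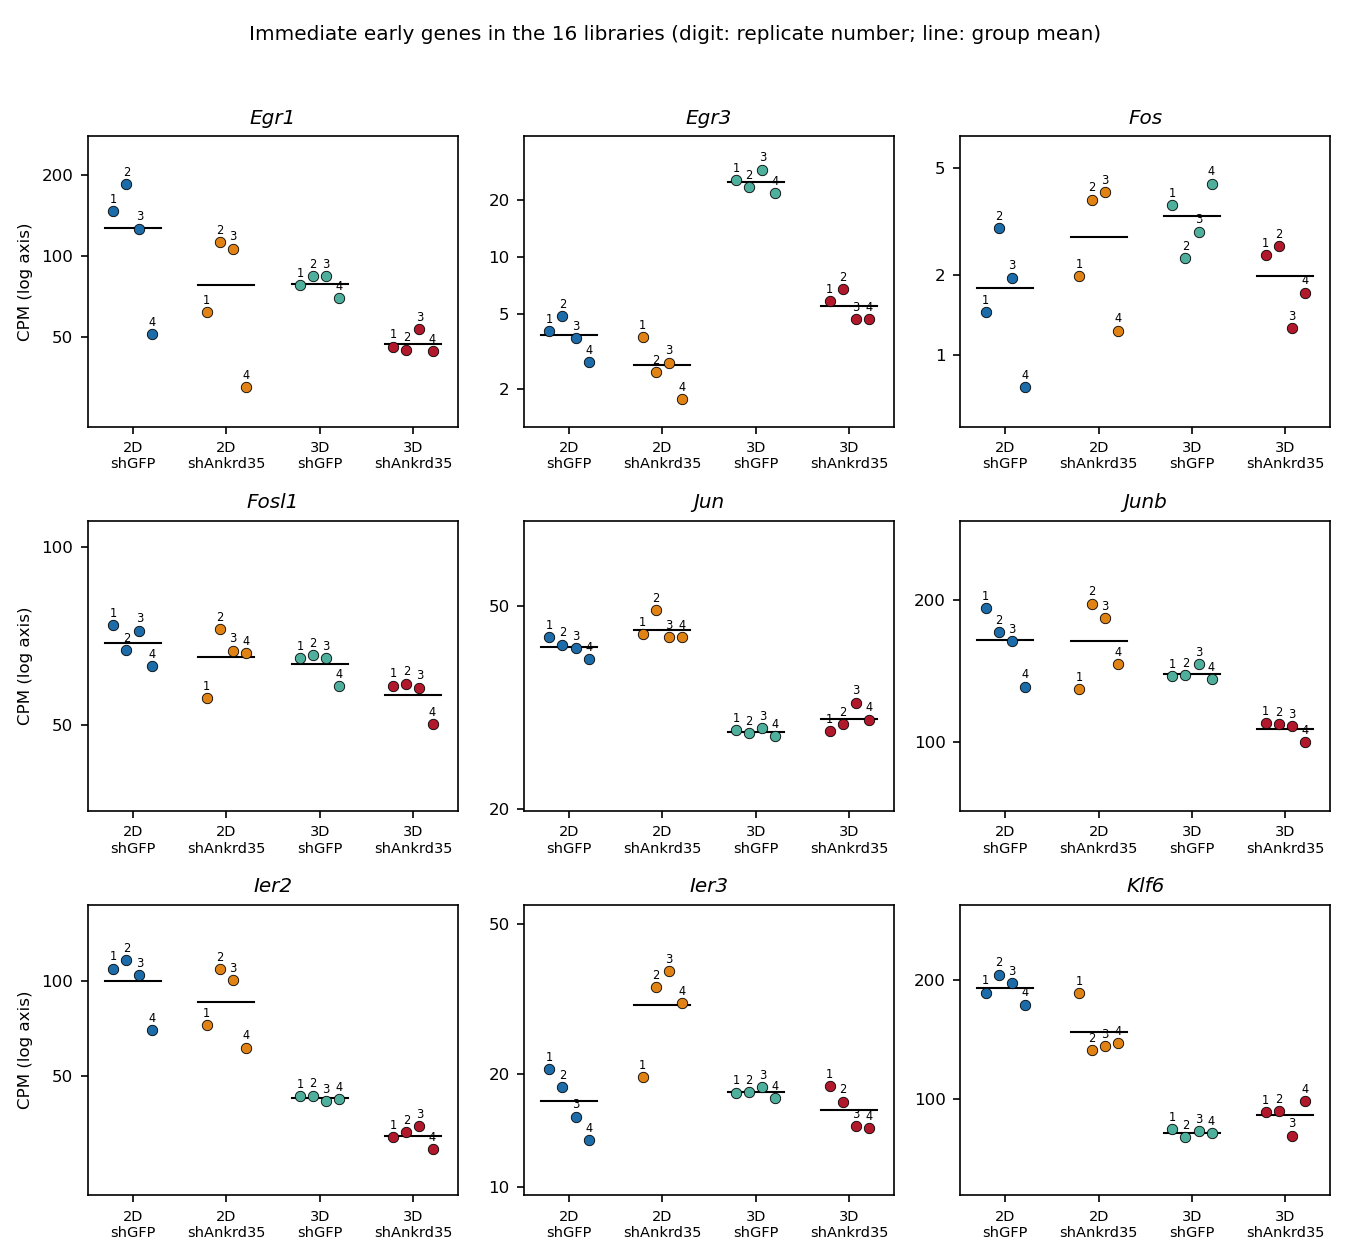
CPM on a log axis for each of the 9 genes, with 1 point per library (the digit is the replicate number) and a line at the group mean, in 4 groups of 4 libraries. Egr3 is highest in the 4 libraries of 3D shGFP (21.7 to 28.7 CPM), Ier2 and Klf6 are lower in both 3D groups than in both 2D groups, and Egr1 spreads far more in 2D than in 3D.

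Among the EGR genes, Egr3 carried the strongest differences of the 9. Its RNA was 6.41-fold higher in 3D shGFP than in 2D shGFP, and in 3D it was 4.51-fold lower with shAnkrd35 than with shGFP. Egr3 encodes an EGR factor of the same DNA-binding type as EGR1 (chromosome 14, 70077203 to 70082614, mm10). In 2D shGFP it read 4.07, 4.87, 3.71 and 2.79 CPM in replicates 1 to 4. In 2D shAnkrd35 it read 3.77, 2.47, 2.76 and 1.78 CPM. The 2D groups overlap, and replicate 4 is the lowest library in each. In 3D shGFP the values were 25.4, 23.2, 28.7 and 21.7 CPM, and in 3D shAnkrd35 they were 5.83, 6.74, 4.70 and 4.68 CPM. No 3D shAnkrd35 library came near the 3D shGFP range, and 2 of the 4 lie within the 2D shGFP range. Egr3 rose in 3D with shGFP by 2.67 ± 0.20 (SE, adjusted p = 5.27e-09) and with shAnkrd35 by 1.03 ± 0.20 (adjusted p = 0.000221). With shAnkrd35 it fell in 3D by 2.16 ± 0.20 (adjusted p = 5.04e-07). In 2D the change was -0.52 ± 0.20 (adjusted p = 0.0337), a call lost when any of 6 libraries was left out: replicates 1, 2 or 3 of 2D shGFP, or 2, 3 or 4 of 2D shAnkrd35 (adjusted p up to 0.125). The difference between the hairpin effects, 3D minus 2D, was -1.64 ± 0.28 (adjusted p = 0.00045). The order of the group means was thus 3D shGFP (24.7 ± 3.05 CPM, SD, n = 4), 3D shAnkrd35 (5.49 ± 0.991), 2D shGFP (3.86 ± 0.863) and 2D shAnkrd35 (2.70 ± 0.827). In bulk RNA, fewer cells with the transcript and less transcript per cell cannot be told apart.

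Egr1, the prototype of the family and a direct ERK and SRF target, differed between libraries of the same group as much as between groups in 2D. It lies on chromosome 18 (34859823 to 34864984, mm10). In 2D shGFP it read 146, 184, 126 and 51.3 CPM, and in 2D shAnkrd35 it read 61.9, 112, 106 and 32.7 CPM. Replicate 4 had the lowest value of its group in both, by more than 2-fold against the replicates 2 and 3. In 3D shGFP the values were 77.9, 84.1, 84.0 and 69.7 CPM, and in 3D shAnkrd35 they were 46.2, 45.0, 53.6 and 44.4 CPM. The 3D groups do not overlap. The change with shAnkrd35 was -0.71 ± 0.38 in 2D (adjusted p = 0.122) and -0.74 ± 0.38 in 3D (adjusted p = 0.168), with 1 spread per gene shared by all 16 libraries. Fitted on the 8 libraries of 3D alone, the 3D change had an adjusted p of 4.45e-07. The same change had adjusted p-values of 4.45e-07 to 0.261 over 30 alternative settings. With 1 library left out at a time, the 2D change was -1.10 to -0.35 (adjusted p up to 0.393). It was called in 1 of 16 such fits, the one without replicate 4 of 2D shGFP (-1.10, adjusted p = 0.0103). With library weights the 2D change was -0.11 (adjusted p = 0.818). Group means were 127 ± 56.0 CPM in 2D shGFP, 78.3 ± 37.8 in 2D shAnkrd35, 78.9 ± 6.79 in 3D shGFP and 47.3 ± 4.28 in 3D shAnkrd35 (SD, n = 4), so the middle groups do not differ beyond their spread. The growth type changes, -0.55 ± 0.38 with shGFP (adjusted p = 0.215) and -0.57 ± 0.38 with shAnkrd35 (adjusted p = 0.19), did not pass the test. Each was called in 1 of 16 fits with 1 library left out, the one without replicate 4 of the 2D group compared (-0.94 in both, adjusted p = 0.0184 and 0.0219).

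Of the other EGR and NAB genes, Egr2 and Nab1 changed, while Egr4 was not analysed here. Nab2, the other NAB corepressor, was at -0.14 with shAnkrd35 in 2D (adjusted p = 0.415) and -0.38 in 3D (adjusted p = 0.057), and both were called with the GC trend removed (-0.32, adjusted p = 0.0229, and -0.44, adjusted p = 0.00687). Egr2, a close relative of EGR1 and EGR3, had its highest level in 3D shGFP and its lowest in 2D shAnkrd35, as Egr3 had: 10.2 ± 0.726 CPM in 3D shGFP, 5.82 ± 1.39 in 2D shGFP, 4.92 ± 0.956 in 3D shAnkrd35 and 4.09 ± 0.716 in 2D shAnkrd35 (SD, n = 4). It fell with shAnkrd35 in 3D by 1.06 ± 0.17 (adjusted p = 0.000133) and in 2D by 0.48 ± 0.17 (adjusted p = 0.0212), and rose in 3D with shGFP by 0.83 ± 0.17 (adjusted p = 0.000325). Nab1, a corepressor that binds EGR proteins, fell with shAnkrd35 in 2D by 0.75 ± 0.15 (adjusted p = 0.000747) and rose in 3D by 0.79 ± 0.15 with shGFP (adjusted p = 0.000306) and 1.34 ± 0.15 with shAnkrd35 (adjusted p = 1.91e-06). Counted with the members, 0 of 5 EGR and NAB genes tested rose and 3 fell in 2D with shAnkrd35 in limma's test, and 0 rose and 2 fell in 3D. The shares over all genes were 29.0% and 28.8% in 2D, and 15.0% and 14.6% in 3D. At an unadjusted p under 0.05, for which no share is given, 0 of these 5 genes were higher and 3 lower in each growth type. With the GC trend removed 4 were lower in 2D and 3 in 3D, against 3645 and 2130 of 12320 genes.

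In the FOS family, Fosl1 made up most of the message and Fos very little. Fos encodes the classical partner of JUN, and FOSL1 (FRA-1) is the FOS protein that accumulates when ERK signalling lasts. Per length the family summed to 49.8 ± 3.07 FPKM in 2D shGFP, 47.2 ± 3.19 in 2D shAnkrd35, 43.1 ± 1.95 in 3D shGFP and 38.3 ± 2.62 in 3D shAnkrd35 (SD, n = 4). Fosl1 took 68.1, 67.9, 72.4 and 72.3% of that sum, and Fosl2 took 28.0, 26.4, 20.0 and 22.5%, in the same order of groups. Fos took 1.51, 2.46, 3.27 and 2.19%, and Fosb 2.36, 3.26, 4.29 and 3.02%. The mean share of Fosl2 was thus lower in both 3D groups. Its library range was 18.8 to 20.9% in 3D shGFP against 26.3 to 29.4% in 2D shGFP, without overlap, and 21.3 to 23.6% in 3D shAnkrd35 against 23.5 to 31.2% in 2D shAnkrd35, with overlap.

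**Figure D2:**
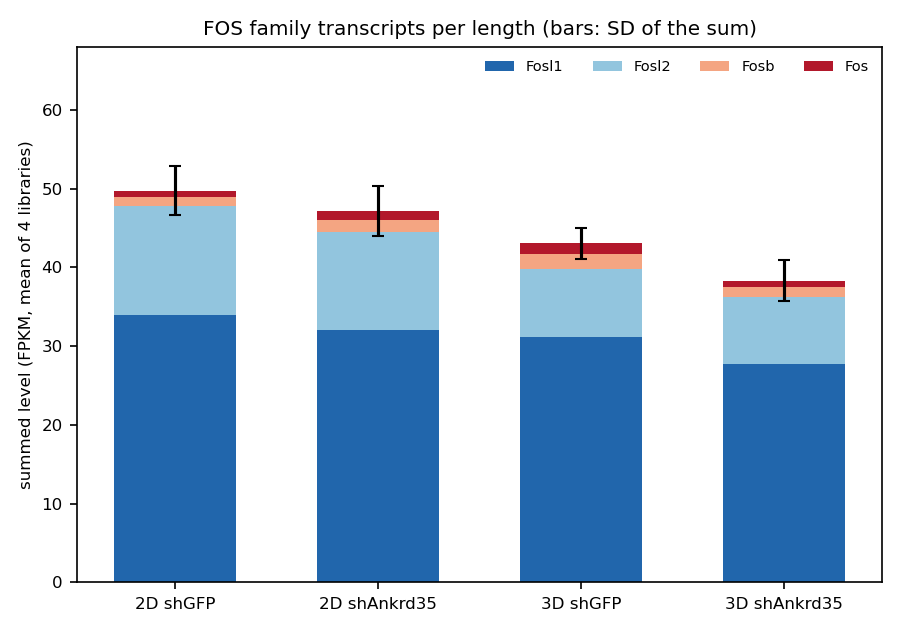
Stacked bars of the mean FPKM of Fosl1, Fosl2, Fosb and Fos in each of the 4 groups (n = 4), with an error bar for the SD of their sum. Fosl1 fills 67.9 to 72.4% of each bar and Fos 1.51 to 3.27%.

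Fosl1 was the member whose level moved least between groups. It lies on chromosome 19 (5447547 to 5455946, mm10). It read 73.9, 66.9, 72.2 and 62.9 CPM in 2D shGFP and 55.6, 72.7, 66.8 and 66.1 CPM in 2D shAnkrd35. The 3D libraries had 65.0, 65.7, 64.9 and 58.2 CPM with shGFP and 58.3, 58.8, 57.9 and 50.2 CPM with shAnkrd35. All neighbouring groups in the order of means (69.0, 65.3, 63.5 and 56.3 CPM) overlap, the last pair only through replicate 4 of 3D shGFP, which lay below its 3 companions. Its change with shAnkrd35 was -0.08 ± 0.08 in 2D (adjusted p = 0.372) and -0.17 ± 0.08 in 3D (adjusted p = 0.105, and 0.0208 on the 8 libraries of 3D alone). With 58.5% GC in its longest transcript against a median of 49.7% over all genes, Fosl1 was moved by the removal of the GC trend, to -0.34 in 2D (adjusted p = 5.37e-06) and -0.24 in 3D (adjusted p = 0.000596). Its only call over all 16 libraries, -0.21 ± 0.08 for 3D against 2D with shAnkrd35 (adjusted p = 0.0235), became 0.15 (adjusted p = 0.00778) once that trend was removed, and no direction can be read from it.

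Fos was counted from 15 to 130 reads per library, so its values carry the largest counting error of the 9. It lies on chromosome 12 (85473890 to 85477273, mm10). In 2D it read 1.45, 2.98, 1.95 and 0.760 CPM with shGFP and 1.98, 3.80, 4.05 and 1.24 CPM with shAnkrd35. The values in 3D were 3.62, 2.30, 2.89 and 4.37 CPM with shGFP and 2.36, 2.56, 1.26 and 1.71 CPM with shAnkrd35. All 4 groups overlap with each other, and the 2D libraries of replicate 4 were the lowest of all 16. Fos was called higher in 3D with shGFP, by 0.96 ± 0.40 (adjusted p = 0.046), but that call was lost in 13 of 29 alternative settings, among them leaving out any one of 10 single libraries: replicates 1, 3 or 4 of 2D shGFP, 1 of 2D shAnkrd35, 1, 3 or 4 of 3D shGFP, or 1, 2 or 4 of 3D shAnkrd35. With shAnkrd35 the change was 0.61 ± 0.40 in 2D (adjusted p = 0.208) and -0.72 ± 0.40 in 3D (adjusted p = 0.202, and 0.0174 on the 8 libraries of 3D alone). The difference between them, -1.33 ± 0.57, did not pass the test (adjusted p = 0.0798). Fosb, which was measured at 7.27 to 11.5 CPM, was called higher with shAnkrd35 in 2D by 0.40 ± 0.16 (adjusted p = 0.0376), a call lost with the GC trend removed (0.30, adjusted p = 0.108). It fell in 3D by 0.67 ± 0.16 (adjusted p = 0.00396), and the effects differed by -1.07 ± 0.22 (adjusted p = 0.00186). Fosl2 fell in 3D by 0.69 ± 0.06 with shGFP (adjusted p = 1.73e-08) and by 0.52 ± 0.06 with shAnkrd35 (adjusted p = 6.25e-07). With the GC trend removed these changes were -0.49 and -0.39, both still called.

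The JUN genes of the table were Junb and Jun. Jun fell in 3D with either hairpin, and Junb fell in 3D with shAnkrd35 but did not pass the test with shGFP, and the difference between the genes was not tested. Jund was not analysed here. JUN is a strong activator within AP-1, and JUNB is the weaker activator that often opposes it. Jun (chromosome 4, 95049034 to 95052222, mm10) read 43.4, 42.0, 41.4 and 39.4 CPM in 2D shGFP and 44.0, 49.0, 43.4 and 43.5 CPM in 2D shAnkrd35. In 3D it read 28.6, 28.2, 28.8 and 27.8 CPM with shGFP and 28.4, 29.4, 32.3 and 29.9 CPM with shAnkrd35. Every 3D library was below every 2D library. Jun fell in 3D by 0.55 ± 0.05 with shGFP (adjusted p = 1.14e-07) and by 0.58 ± 0.05 with shAnkrd35 (adjusted p = 7.24e-08). Both calls held in all 30 alternative settings, but the falls were smaller with the GC trend removed. Jun was then at -0.40 with shGFP (adjusted p = 2.41e-06) and -0.28 with shAnkrd35 (adjusted p = 0.000131). Its change with shAnkrd35 was 0.11 ± 0.05 in 2D (adjusted p = 0.078) and 0.08 ± 0.05 in 3D (adjusted p = 0.282), so within a growth type the hairpin groups, which overlap, were not told apart.

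Junb (chromosome 8, 84974484 to 84978718, mm10) read 192, 171, 163 and 131 CPM in 2D shGFP and 129, 196, 183 and 146 CPM in 2D shAnkrd35. In 3D it read 138, 138, 146 and 136 CPM with shGFP and 109, 109, 108 and 99.99 CPM with shAnkrd35. The 2D groups had the same mean (164 ± 25.4 and 164 ± 31.2 CPM, SD, n = 4), the 3D shGFP libraries lay inside their range, and the 3D shAnkrd35 libraries lay below all 12 others. Junb fell with shAnkrd35 in 3D by 0.39 ± 0.12 (adjusted p = 0.0223), and the adjusted p rose to 0.058 without replicate 3 of 3D shGFP and 0.0592 without replicate 4 of 3D shAnkrd35. In 2D the change was -0.01 ± 0.12 (adjusted p = 0.937), or -0.21 with the GC trend removed (adjusted p = 0.0486), and the difference between the 2 effects did not pass the test (-0.38 ± 0.17, adjusted p = 0.093). For 3D against 2D, Junb fell with shAnkrd35 by 0.60 ± 0.12 (adjusted p = 0.000359), a value that shrank to 0.20 with the GC trend removed (-0.20, adjusted p = 0.046). With shGFP it was -0.22 ± 0.12 (adjusted p = 0.112). It was called in 1 of 16 fits with 1 library left out, the one without replicate 4 of 2D shGFP (-0.33, adjusted p = 0.0168). Junb outnumbered Jun per length in each group, at 71.4, 71.1, 60.7 and 46.3 FPKM against 13.0, 14.1, 8.89 and 9.41 FPKM.

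The promoters of the AP-1 genes are shown because Fos, Jun and Junb are textbook targets of the same cascades. RefSeq promoter windows of 300 bases (250 before to 50 after the annotated start, build GRCm38.p6) matched 5 of the 9 genes: Fos, Ier3, Jun, Junb and Klf6. The 150 bases before the start are printed 5′ to 3′ on the gene's strand, for Fos at chr12:85473740-85473889 (plus strand), Jun at chr4:95052223-95052372 (minus strand) and Junb at chr8:84978749-84978898 (minus strand). Capitals mark the core of the CRE, TGACG, and the site TGACATCA.
Fos: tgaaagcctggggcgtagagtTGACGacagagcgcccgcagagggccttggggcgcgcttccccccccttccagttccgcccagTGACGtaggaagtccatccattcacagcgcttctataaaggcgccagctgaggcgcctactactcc
Jun: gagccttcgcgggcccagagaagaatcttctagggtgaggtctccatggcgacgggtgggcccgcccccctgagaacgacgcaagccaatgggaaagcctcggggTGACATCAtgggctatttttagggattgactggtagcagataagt
Junb: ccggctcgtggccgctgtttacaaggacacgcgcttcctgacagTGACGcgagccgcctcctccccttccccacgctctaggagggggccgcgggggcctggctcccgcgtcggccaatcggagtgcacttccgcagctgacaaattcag
TGACG, searched on both strands, was found at positions -129 and -66 of Fos and -106 of Junb, counted from the start, and in 20.8% of 32817 windows of the mouse genome. TGACATCA was found at -45 of Jun and at -119 of Klf6, and in 3.62% of windows. Neither motif was found in the window of Ier3. None of the 5 windows held the full CRE TGACGTCA, which holds TGACG within it, or the AP-1 site TGANTCA. The EGR site GCGTGGGCG and the CArG box, the core of the serum response element, were found in none of them either. Over all windows these motifs were found in 1.79, 7.81, 0.612 and 1.63%, in that order. Sequence outside the windows was not searched, so sites farther upstream, and all sites of Egr1, Egr3, Fosl1 and Ier2, are not covered. Fos and Junb share the TGACG core, and their changes with shAnkrd35 in 3D were -0.72 ± 0.40 (not called) and -0.39 ± 0.12 (called). Jun and Klf6 share TGACATCA and were both lower in 3D, as was Ier2, which had no window. Junb, whose window lacks TGACATCA, was also lower in 3D with shAnkrd35 (-0.60 ± 0.12). A link between a motif and a change was not tested. The motif matches describe the letters in the windows and were not tested as sites.

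Of the genes named for their early induction, Ier2 followed the growth type and Ier3 followed a single group. Ier2 (chromosome 8, 84661331 to 84662852, mm10) read 109, 116, 104 and 69.6 CPM in 2D shGFP and 72.4, 109, 100.4 and 61.4 CPM in 2D shAnkrd35. The 3D libraries had 43.2, 43.3, 41.5 and 42.2 CPM with shGFP and 32.0, 33.1, 34.7 and 29.3 CPM with shAnkrd35. Every 3D library was below every 2D library, the 3D groups did not overlap, and the 2D groups did. Ier2 fell in 3D by 1.20 ± 0.17 with shGFP (adjusted p = 2.07e-05), a ratio of means of 2.35, and by 1.37 ± 0.17 with shAnkrd35 (adjusted p = 5.48e-06), a ratio of 2.66. With the GC trend removed Ier2 was at -1.01 with shGFP (adjusted p = 2.05e-05) and -0.97 with shAnkrd35 (adjusted p = 3.11e-05). With shAnkrd35 its change was -0.40 ± 0.17 in 3D (adjusted p = 0.0941, 1.78e-05 on the 8 libraries of 3D alone, and 0.0205 at -0.47 with the GC trend removed) and -0.23 ± 0.17 in 2D (adjusted p = 0.263, and 0.00768 at -0.51 with the GC trend removed). With 1 library left out at a time, the 2D change was -0.39 to -0.08. It was called in 1 of 16 such fits, the one without replicate 4 of 2D shGFP (-0.39, adjusted p = 0.037).

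Ier3 (chromosome 17, 35821684 to 35822923, mm10) was high only in 3 of the 4 libraries of 2D shAnkrd35. There it read 19.6, 33.9, 37.5 and 30.8 CPM, against 20.5, 18.4, 15.4 and 13.3 CPM in 2D shGFP. The values in 3D were 17.8, 17.9, 18.4 and 17.2 CPM with shGFP and 18.5, 16.9, 14.5 and 14.3 CPM with shAnkrd35. The low library of 2D shAnkrd35 was replicate 1, the one with the high ribosomal RNA-like signal, and its value lay inside the 2D shGFP range. Ier3 rose with shAnkrd35 in 2D by 0.82 ± 0.17 (adjusted p = 0.000789), or by 1.02 without that library (adjusted p = 3.59e-06) and by 0.48 with the GC trend removed (adjusted p = 0.00315). In 3D its change was -0.16 ± 0.17 (adjusted p = 0.54). The effects differed by -0.98 ± 0.24 (adjusted p = 0.00637). Between growth types it fell in 3D with shAnkrd35 by 0.89 ± 0.17 (adjusted p = 0.000248), or by 0.54 with the GC trend removed (-0.54, adjusted p = 0.000876), and was 0.10 ± 0.17 with shGFP (adjusted p = 0.635). The means of 2D shGFP, 3D shGFP and 3D shAnkrd35 (16.9 ± 3.19, 17.8 ± 0.506 and 16.1 ± 1.99 CPM, SD, n = 4) do not differ beyond their spread.

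Klf6 was lower in every 3D library than in any 2D library. It lies on chromosome 13 (5861482 to 5870394, mm10) and its longest transcript has 42.4% GC, the lowest of the 9. It read 185, 206, 196 and 173 CPM in 2D shGFP and 185, 133, 136 and 138 CPM in 2D shAnkrd35. In 3D it read 83.7, 80.0, 83.0 and 81.8 CPM with shGFP and 92.5, 92.9, 80.7 and 98.7 CPM with shAnkrd35. The 2D groups overlap only through replicate 1 of 2D shAnkrd35. Klf6 fell in 3D by 1.21 ± 0.09 with shGFP (adjusted p = 4.85e-09), a ratio of means of 2.31, and by 0.69 ± 0.09 with shAnkrd35 (adjusted p = 4.31e-06), a ratio of 1.62, and removal of the GC trend made both falls larger (-1.50 and -1.11). With shAnkrd35 it fell in 2D by 0.37 ± 0.09 (adjusted p = 0.00216), by 0.48 without replicate 1 (adjusted p = 5.15e-06), and was at -0.16 with the GC trend removed (adjusted p = 0.0859). In 3D its change was 0.15 ± 0.09 (adjusted p = 0.24, 0.0325 on the 8 libraries of 3D alone, and 0.0179 at 0.24 with the GC trend removed), and the effects differed by 0.52 ± 0.13 (adjusted p = 0.00559).

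Other Krüppel-like factors were tested in the same fit, and 12 of the 13 on the list, Klf6 included, were in the table. With shAnkrd35, 0 of 12 rose and 9 fell in 2D in limma's test (0 and 10 at an unadjusted p under 0.05), whereas 5 rose and 4 fell in 3D, with all-gene shares of 29.0% and 28.8% in 2D and 15.0% and 14.6% in 3D. The difference of the effects, 3D minus 2D, was positive and called in 8 of 12 and negative and called in 0 (9 and 0 at an unadjusted p under 0.05). The shares of all genes were 17.1% and 18.6%, and the list median was 0.53 against 0.00 over all genes. Klf4, a regulator of epithelial differentiation and an early response gene itself, fell in 2D by 0.70 ± 0.05 (adjusted p = 9.86e-09) and rose in 3D by 0.70 ± 0.05 (adjusted p = 2.39e-08). Its group means were 145 ± 3.49 CPM in 2D shGFP, 89.8 ± 6.24 in 2D shAnkrd35, 46.3 ± 1.63 in 3D shGFP and 75.1 ± 3.14 in 3D shAnkrd35. In 3D with shGFP 8 of the 12 fell and 1 rose, where 32.1% of all genes fell and 35.2% rose. With shAnkrd35 4 fell and 4 rose, near the shares of 36.0% and 34.4% of all genes.

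Over the 9 genes, the counts were compared with the share of all tested genes that passed. In 2D with shAnkrd35, 1 of 9 was higher (Ier3) and 2 were lower (Egr3 and Klf6), against 29.0% and 28.8% of all genes. With the GC trend removed 1 was higher (Ier3) and 4 were lower (Egr3, Fosl1, Junb and Ier2) in 2D, against 3274 and 3645 of 12320 genes. With the replicate block as well 6 were lower, against 3551 of 12320 genes. In 3D with shAnkrd35, 0 of 9 were higher and 2 were lower (Egr3 and Junb), against 15.0% and 14.6% of all genes. With the GC trend removed the 3D counts were 1 (Klf6) and 4 (Egr3, Fosl1, Junb and Ier2), against 1957 and 2130 of 12320 genes. At an unadjusted p under 0.05 in limma the 3D counts were 0 and 4, and limma's voom on the whole reads gave 0 and 2. No share of all genes is given for either, and the adjusted shares above do not apply to the unadjusted counts. On the 8 libraries of 3D alone 1 was higher (Klf6) and 6 were lower (Egr1, Egr3, Fos, Fosl1, Junb and Ier2), against 20.1% and 21.2% of all genes. Of the 9, 4 had all 3D shAnkrd35 libraries below all 3D shGFP libraries (Egr1, Egr3, Junb and Ier2), as had 19.4% of all genes, and 0 had them all above, as had 18.8%. In 2D the groups overlapped for all 9, while 22.3% of all genes had the shAnkrd35 libraries all above and 17.5% all below. In 3D against 2D, with shGFP 2 of 9 were higher (Egr3 and Fos) and 3 lower (Jun, Ier2 and Klf6), where 35.2% of all genes were higher and 32.1% lower. With shAnkrd35 1 was higher (Egr3) and 6 were lower (Fosl1, Jun, Junb, Ier2, Ier3 and Klf6), where 34.4% were higher and 36.0% lower. These 2 comparisons share no library with each other, but each shares libraries with the hairpin comparisons. The difference of the hairpin effects was positive and called for 1 of 9 (Klf6) and negative and called for 2 (Egr3 and Ier3), against 17.1% and 18.6% of all genes.

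**Figure D3:**
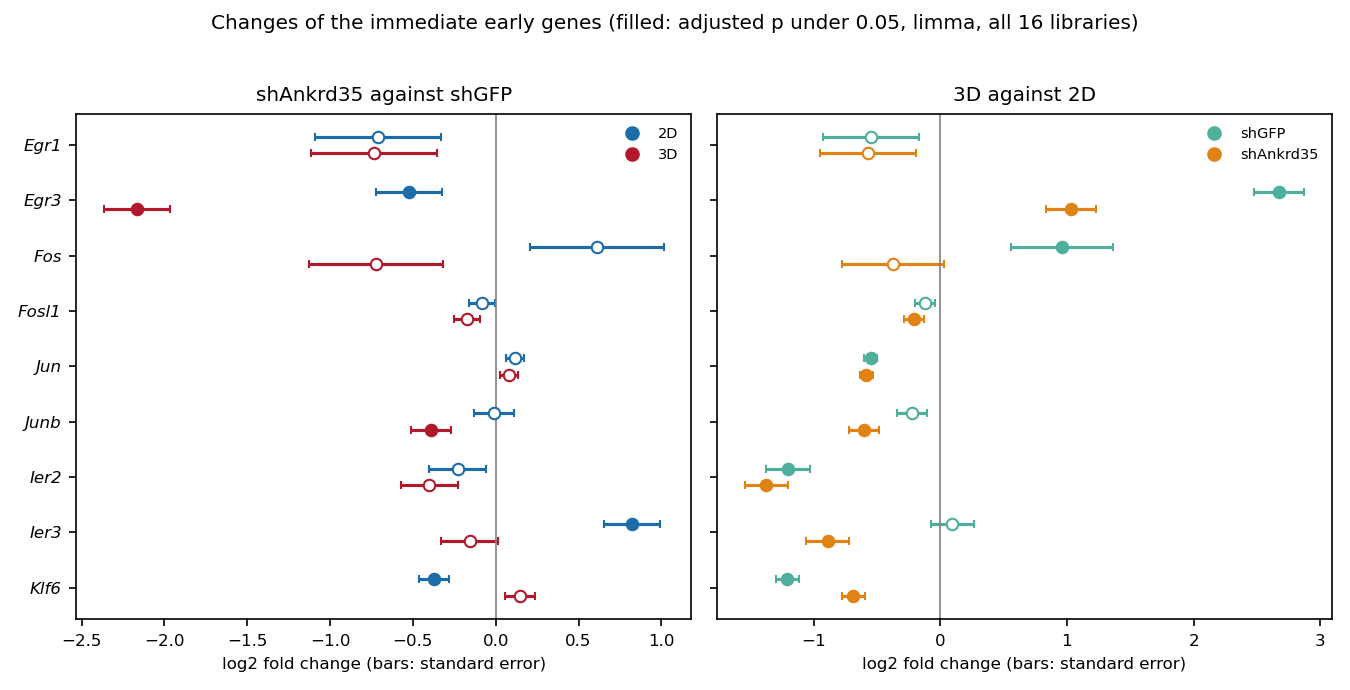
log2 fold changes of the 9 genes with the SE as bars, for shAnkrd35 against shGFP in 2D and 3D (left) and 3D against 2D with each hairpin (right), from 16 libraries. Filled points passed an adjusted p of 0.05. Egr3 stands at -2.16 for the hairpin in 3D and 2.67 for growth in 3D with shGFP, and Jun, Ier2 and Klf6 lie below 0 with filled points for both hairpins on the right.

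The spread between libraries of a group was itself large for several members, and it was larger in 2D. The SD of Egr1 on the log2 scale was 0.81 in 2D shGFP and 0.83 in 2D shAnkrd35, but 0.13 in each 3D group, where the median over all genes was 0.10, 0.14, 0.07 and 0.10 in the order 2D shGFP, 2D shAnkrd35, 3D shGFP and 3D shAnkrd35. Among the 500 genes nearest to it in abundance, Egr1 stood at percentile 99.8 of the SD in 2D shGFP and above all of them in 2D shAnkrd35. Fos had an SD of 0.78 in both 2D groups, at percentile 97.0, and 0.39 and 0.44 in 3D. Ier2 went from 0.33 and 0.39 in 2D to 0.03 and 0.10 in 3D, and Junb from 0.23 and 0.28 to 0.05 and 0.06. Jun had small SDs, of 0.06, 0.08, 0.02 and 0.08, and with shAnkrd35 they barely differed between growth types. Those of Fosl1 were 0.11, 0.16, 0.08 and 0.11, and those of Klf6 0.11, 0.22, 0.03 and 0.12, in the same order of groups. The spread had a common direction in the 2D shGFP group, where replicate 4 was the lowest library for 9 of 9 members, while 18.3% of all genes were lowest in it. In 2D shAnkrd35, replicate 4 was the lowest for 4 of 9 (Egr1, Egr3, Fos and Ier2), with 19.9% of all genes, and replicate 1 for 3 (Fosl1, Junb and Ier3). In 3D replicate 4 was the lowest for 6 of 9 members in each group, with 25.6% and 31.8% of all genes. The labels give no date, lane or harvest for the replicate numbers, and what the libraries numbered 4 share was not tested.

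**Figure D4:**
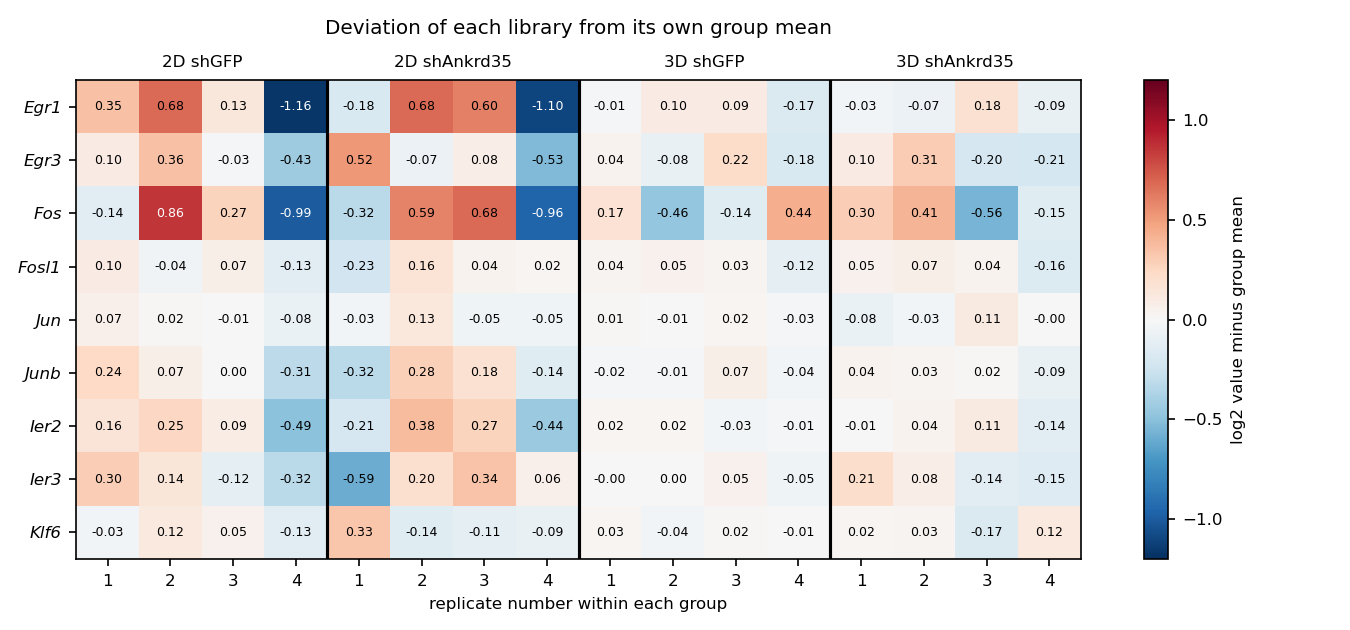
Deviation of each library from the mean of its own group on the log2 scale, for the 9 genes (rows) in 16 libraries (columns, by replicate number within group), red above and blue below the mean. The 2D libraries numbered 4 are blue for Egr1 (-1.16 and -1.10) and Fos (-0.99 and -0.96), and the row of Jun is nearly blank.

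Because 1 spread per gene was shared by all 16 libraries, the 2D spread enters the SE of the 3D comparisons, and this is the construction behind the higher p-values of Egr1, Fos and Ier2 in 3D over all 16 libraries than over the 8 of 3D.

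Beyond the 9, a list of 50 other immediate early genes, of which 47 were tested, was fitted in the same way. With shAnkrd35, 23 rose, 8 fell and 16 were not called in 2D (list median 0.23, all genes 0.01), where 29.0% of all genes were called higher and 28.8% lower. In 3D, 3 rose, 16 fell and 28 were not called (list median -0.11, all genes 0.00), where the shares of all genes were 15.0% and 14.6%. The difference of effects was negative and called for 26 of 47, and positive and called for 4, against 18.6% and 17.1% of all genes. Nr4a1, an orphan nuclear receptor induced within minutes, had 27.7 ± 4.88 CPM in 2D shGFP, 52.8 ± 7.30 in 2D shAnkrd35, 124 ± 11.6 in 3D shGFP and 55.1 ± 3.91 in 3D shAnkrd35, a difference of effects of -2.10 ± 0.16 (adjusted p = 3.82e-07). Nr4a1 shared with Egr3 its peak in 3D shGFP. Trib1, a pseudokinase, rose in 2D by 0.71 ± 0.04 (adjusted p = 5.52e-10), and Ereg, an EGFR ligand, fell in 2D by 1.17 ± 0.10 (adjusted p = 4.92e-08) and in 3D by 0.97 ± 0.10 (adjusted p = 9.66e-07). Plk2, a kinase of the early response, fell in 3D with shGFP by 2.07 ± 0.05 (adjusted p = 1.2e-15), from 193 ± 4.66 to 46.1 ± 1.97 CPM. With the GC trend removed, the counts of the list were 19 higher and 11 lower in 2D, and 3 higher and 20 lower in 3D. In that fit 3274 of 12320 genes were higher and 3645 lower in 2D, and 1957 higher and 2130 lower in 3D.

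Partners and regulators that act with AP-1 were tested next. Of 11 tested among 15 ATF, MAF, CREB and JDP genes, 8 fell and 2 rose in 3D with shGFP, and 6 fell and 3 rose with shAnkrd35, where 32.1% and 36.0% of all genes fell. Atf3, a stress-induced ATF factor, had 30.1 ± 3.19 CPM in 2D shGFP, 14.2 ± 2.07 in 2D shAnkrd35, 7.15 ± 0.795 in 3D shGFP and 4.16 ± 1.35 in 3D shAnkrd35. It fell with shAnkrd35 by 1.08 in 2D (adjusted p = 0.000191) and by 0.82 in 3D (adjusted p = 0.00373). Jdp2, a repressor that pairs with JUN, fell in 3D by 2.15 with shGFP (adjusted p = 9.89e-14). With shAnkrd35, 8 of the 11 fell and 0 rose in 2D, and 4 fell and 0 rose in 3D (0 higher in each also at an unadjusted p under 0.05), where 28.8% and 14.6% of all genes fell. With the GC trend removed 9 fell in 2D and 8 in 3D. Of 22 AP-1 target genes tested among 26, 8 rose and 8 fell in 3D with shGFP, near the 35.2% and 32.1% of all genes. In 2D with shAnkrd35 12 rose and 4 fell, against 29.0% and 28.8% of all genes, and with the GC trend removed 10 rose and 7 fell. Mmp13 and Mmp3, matrix metalloproteinases, rose in 2D with shAnkrd35 by 1.21 and 1.42, and Plau, the urokinase gene, fell by 0.93 in 2D and by 1.19 in 3D. Of 13 EGR1 targets tested, 3 rose and 3 fell in 2D, and 1 rose and 4 fell in 3D, with shAnkrd35. The shares of all genes were 29.0% and 28.8% in 2D and 15.0% and 14.6% in 3D. With the GC trend removed the counts of EGR1 targets were 5 and 5 in 2D and 2 and 7 in 3D. In that fit, which also gave the GC-removed counts of the AP-1 lists above, 3274 of 12320 genes rose and 3645 fell in 2D. In 3D 1957 rose and 2130 fell.

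Upstream, 10 genes used as a score of ERK output, which hold none of the 9, were lower in 3D. Of these, 9 of 10 fell and 0 rose with each hairpin (also at an unadjusted p under 0.05), with list medians of -0.92 with shGFP and -0.93 with shAnkrd35 against 0.03 and -0.02 over all genes, of which 32.1% and 36.0% fell. Dusp6, the ERK phosphatase and the best known of them, had 156 ± 10.6 CPM in 2D shGFP, 213 ± 11.3 in 2D shAnkrd35, 83.5 ± 4.26 in 3D shGFP and 78.0 ± 2.47 in 3D shAnkrd35. With shAnkrd35, 4 of 10 rose and 1 fell in 2D, where 29.0% of all genes rose and 28.8% fell. In 3D 4 also rose and 1 fell, where the shares of all genes were 15.0% and 14.6%. With the GC trend removed 3 rose and 2 fell in 2D, where 3274 and 3645 of 12320 genes did. In 3D 4 rose and 2 fell in that fit, where 1957 and 2130 did. Of the 9 immediate early genes, Jun, Ier2 and Klf6 were called lower in 3D with both hairpins, and Egr3 was called higher with both. Fosl1, Junb and Ier3 were called lower with shAnkrd35 alone, and the Fosl1 call reversed with the GC trend removed. Fos was called higher with shGFP alone, and Egr1 was called with neither. A link between the 9 genes and that score was not tested. Of 15 feedback inhibitors of ERK, which overlap with that score, 9 fell and 2 rose in 3D with shGFP, where 32.1% and 35.2% of all genes did. With shAnkrd35 10 fell and 1 rose, where 36.0% and 34.4% of all genes did. Of 21 genes of the RAS to ERK cascade itself, 7 rose and 6 fell in 3D with shGFP, where 35.2% and 32.1% of all genes did. Srf, the serum response factor, fell with shAnkrd35 in 3D by 0.32 ± 0.06 (adjusted p = 0.000629), and was called higher in 2D, by 0.16 ± 0.06 (adjusted p = 0.0347), a value that became 0.03 with the GC trend removed. Of 15 JNK and p38 genes, 6 rose and 6 fell in 3D with shGFP, near the 35.2% and 32.1% of all genes. With the GC trend removed 7 rose and 4 fell, where 4578 and 3721 of 12320 genes did. Heat shock genes, a sign of handling stress that can move with immediate early genes, summed to 9008 to 9329 CPM in 2D shGFP, 10487 to 11072 in 2D shAnkrd35, 8068 to 8525 in 3D shGFP and 8783 to 9252 in 3D shAnkrd35, and their part in the results was not tested. Of 14 tested, 6 rose and 2 fell with shAnkrd35 in 2D, against 29.0% and 28.8% of all genes.

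The pattern of each member over the 4 groups was also compared with that of 9820 other genes, by the root mean square difference between centred log2 group means. The nearest genes to Egr1 were Areg and Parn (differences of 0.044 and 0.045 log2 units), to Junb Cdc23 and Tbc1d10a (0.024 and 0.025), to Jun Ccdc137 and Pacs1 (0.006 and 0.010), and to Klf6 Mars and Spg20 (0.033 and 0.042). Areg, the EGFR ligand amphiregulin, is itself known as an early response gene. The pattern of Egr3 had no close match, with Eif2s3y at 0.322 and Ifitm1 at 0.401. The nearest to Fos were Cdx2 and Npy4r (0.052 and 0.112), to Fosl1 Cog7 and Fggy (0.013 and 0.014), to Ier2 Cdyl and Pgf (0.086 and 0.090) and to Ier3 Tmem256 and Acat2 (0.036 and 0.055). Within the 9, Fosl1 and Junb lay closest to each other (0.147) and Egr3 and Ier2 farthest apart (1.69). These distances rest on 4 group means, and many genes of small change lie near each other by that alone.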

How the data were processed

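RNA of LKR10 cells was sequenced in 16 libraries, 4 for each of 4 groups taken from the labels. The submitters' processing notes name mm10, edgeR, STAR 2.5.1b and Trimmomatic 0.38, with no order or role. Which program counted the reads, on what annotation, with or without strand, and how low genes were removed is not given in the sources used here. The authors deposited 1 table of log2 expression values with 1 column per library and 0 columns of other samples. From the values, each is the log2 of CPM with a prior count that averages 2.0 reads, and whole reads came back within 0.01 reads for 100.0% of values, giving the CPM printed here without the prior. Altered symbols were restored (385), and 12217 matched GENCODE M21 (99.2%), which gave coordinates, exonic length and GC content.

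limma 3.58.1 (R 4.3.3, statmod 1.5.0) with a variance trend and robust fitting was run on the log2 values over all genes with at least 1 CPM in 4 libraries, as a cell-means model of 4 groups with 5 contrasts. It was tested on simulated data. Because the prior is inside the log2 values, fold changes of low genes are understated. The members and gene lists were chosen with earlier results of these data known, and all 9 members are named. From each list up to 4 called genes per contrast with the smallest p, and any EGR, FOS, JUN or KLF family gene, could be named, and for likeness the 2 nearest genes of at least 5 CPM. Other alternatives were a fit of the compared groups alone, library weights, filters, scalings, voom, a replicate block, removal of a GC and length trend, leaving out libraries, and a variance factor for each growth type. Promoter windows are from RefSeq (GRCm38.p6), and motifs were searched on both strands.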

Additional observations from a re-analysis of the deposited data

Results flagged for a closer look

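In 36 groups of 4 libraries (9 genes in 4 groups), 5 held a library whose gap to its nearest companion took up most of the range of the group, where chance gives about 1 in 20. Fosl1 was lowest in replicate 4 of 3D shGFP, at 58.25 CPM against 64.94 to 65.66 in the others, and in replicate 4 of 3D shAnkrd35, at 50.2 CPM against 57.89 to 58.81. Junb was lowest in the same library of 3D shAnkrd35, at 99.99 CPM against 107.8 to 109.4. Jun was highest in replicate 2 of 2D shAnkrd35, at 49.02 CPM against 43.41 to 44.04. Klf6 was highest in replicate 1 of 2D shAnkrd35, at 184.7 CPM against 132.8 to 138 in the others, and that library also held the high Gm23935 signal.

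The effect of the hairpin differed between growth types for 3 genes by limma's test of the difference, 3D minus 2D. For Egr3 the difference was -1.641 (adjusted p = 0.00045), for Ier3 it was -0.9809 (adjusted p = 0.00637) and for Klf6 it was 0.5203 (adjusted p = 0.00559).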

How the results depend on the processing

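Each of the 45 log2 fold changes of the 9 genes was recomputed under up to 30 alternative settings, giving 1336 values. Of these, 1254 kept the direction and the side of the threshold or changed sign while called in neither (33 values), 29 lost the call, 51 gained it and 2 reversed, and 24 of the 45 changes stayed on their side of the threshold in every setting, of which 18 also kept their sign and 6, called in no setting, did not. The reversed value was that of Fosl1 for 3D against 2D with shAnkrd35, at 0.15 with the GC and length trend removed, with and without the replicate block. Counts of members called moved as follows, and where a setting is not an exclusion of libraries or genes the cause was not tested. Lower in 2D with shAnkrd35 (2): 1 with only the compared libraries, with voom or with a variance factor for each growth type, 4 with the GC trend removed and 6 with that and the replicate block. Higher in 2D (1): 2 with library weights or without both 2D libraries numbered 1. Lower in 3D with shAnkrd35 (2): 6 with only the compared libraries, 5 with the variance factor, and 4 with library weights, with the GC trend removed (with or without the block) or without both 2D libraries numbered 4. Higher in 3D (0): 1 with the compared libraries, library weights or the GC trend removed (with or without the block). For 3D against 2D with shGFP, higher (2) became 1 with a mean of at least 5 CPM, which removes Fos, with quantile normalization, or without both 2D libraries numbered 1 or 4, and lower (3) became 5 without those numbered 4. For 3D against 2D with shAnkrd35, higher (1) became 2 with the GC trend removed (with or without the block). The negative differences of effects (2) became 4 with library weights. Leaving out 1 library at a time gave 1 to 4 lower and 1 higher in 2D, 1 to 3 lower and 0 higher in 3D, 1 to 2 higher and 3 to 5 lower for 3D against 2D with shGFP, 5 to 7 lower with shAnkrd35, and 2 to 3 negative differences. Over all genes, positive differences of effects numbered 2110, 3623 with library weights and 3358 without both 2D libraries numbered 1.

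In none of the comparisons made did every same-numbered pair of libraries have a correlation of deviations over 0.1, so the numbers were not taken to pair them. The 2D libraries of both hairpins had -0.37, -0.48, -0.03 and 0.21, and the 3D libraries 0.05, 0.01, -0.20 and 0.15. The 2D shGFP and 3D shAnkrd35 libraries, which were not compared, had 0.18, 0.19, 0.12 and 0.18, and each of these 4 2D shGFP libraries correlated best with its own number. With the replicate block alone, Egr1 in 2D was called at -0.71 (adjusted p = 0.0469) and Ier2 in 3D at -0.40 (adjusted p = 0.0331). Leaving out both 2D libraries numbered 4, a choice made after seeing Egr1, Fos and Ier2, gave Egr1 an adjusted p of 0.00761 in 2D and 0.00532 in 3D with shAnkrd35. Depth limits Fos most, with 15 to 130 reads per library.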
